A study of Mus musculus with 24 samples.

Results

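Parp9, Parp10, Parp11, Parp12, Parp14 and Dtx3l are 6 interferon-linked genes of ADP-ribosylation, and their levels were followed in the blood of irradiated mice with and without Parp1. The members were chosen by name: every array probe that is not a control and carries 1 of these 6 symbols was taken, and the brightest of a gene's probes stood for it. They are 6 of 24124 genes with a symbol on the array, and 10 probes carry their names. Whole blood of male 129S/J mice was collected by cardiac puncture 24 h after X rays or sham exposure and measured on 1-colour Agilent arrays, 1 mouse per array. The 5 groups were wild-type mice at 0 Gy (sham, n = 5), 6 Gy (n = 5) and 8.8 Gy (n = 4), and Parp1-/- mice at 0 Gy (sham, n = 5) and 6 Gy (n = 5). The LD50/30, the dose that kills 50% of animals within 30 days, is 8.8 Gy in wild-type and 6 Gy in Parp1-/- mice per the study's design. The knockout is of the whole animal, so every blood cell type lacks the gene, and all groups, sham included, went through the same globin reduction. The comparisons address whether the blood response to radiation differs without Parp1, at equal dose and at equal lethality.

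PARP enzymes transfer ADP-ribose from NAD+ to proteins. Parp1, the founder of the family, builds chains at broken DNA, whereas most of the enzymes described here attach single ADP-ribose units and are known for their induction by interferon in leukocytes. Type I interferon, through its receptor and the kinases Jak1 and Tyk2, brings Stat2 and Irf9 into a complex that binds the interferon-stimulated response element, while interferon gamma acts through the gamma-activated site. Parp9 carries macrodomains that bind ADP-ribose and works in a complex with Dtx3l, a ubiquitin ligase of the deltex family. Parp14 is a mono-ADP-ribosyltransferase with macrodomains that was first described as a partner of Stat6, and Parp10 is a mono-ADP-ribosyltransferase first described as a partner of Myc. Parp12 carries zinc fingers, is placed at the Golgi and in stress granules and restrains viruses, and Parp11 is a mono-ADP-ribosyltransferase with a WWE domain.

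Parp14, Dtx3l and Parp9 are neighbours. In RefSeq (GRCm38.p6) the order of protein-coding genes on chromosome 16 is Hspbap1, Parp14, Dtx3l, Parp9 and Kpna1. Parp10 lies between Plec and Grina on chromosome 15, and Parp11 (between Ccnd2 and Cracr2a) and Parp12 (between Tbxas1 and Kdm7a) lie apart on chromosome 6. The array files place the brightest probes, in mm9 coordinates, at chr16:35832992-35833051 for Parp14, chr16:35926655-35926714 for Dtx3l, chr16:35972577-35972636 for Parp9, chr15:76063433-76063492 for Parp10 and chr6:39036828-39036887 for Parp12. The Parp11 probe is listed from chr6:127428092-127439947, a span far longer than the probe. Whether a probe lies in a coding exon was not analysed here.

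Promoter windows of 250 bases before to 50 bases after a start site, from RefSeq (GRCm38.p6), were matched for 3 of the 6 genes: Parp11 (2 windows), Parp12 and Dtx3l. The first Parp11 window and the Dtx3l window are shown so that the presence or absence of the strings searched can be read directly. The core of the interferon-stimulated response element was searched as GAAANNGAAA and the gamma-activated site as TTCNNNGAA, on both strands. Of 32851 mouse windows of this length, 3.44% held the first and 8.30% the second. The first Parp11 window (chr6:127446590-127446889, + strand) held both, and capitals mark them: the response element core on the minus strand at bases -44 to -35 from the start, and a gamma-activated site at bases -37 to -29 that overlaps it.
Parp11 window 1: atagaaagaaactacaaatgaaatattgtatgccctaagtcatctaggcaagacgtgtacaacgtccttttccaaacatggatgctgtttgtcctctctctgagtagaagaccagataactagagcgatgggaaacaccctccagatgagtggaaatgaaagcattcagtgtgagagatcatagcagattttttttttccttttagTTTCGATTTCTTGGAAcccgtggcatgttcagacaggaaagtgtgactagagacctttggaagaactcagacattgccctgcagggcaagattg
The second Parp11 window (chr6:127453377-127453676, + strand), the Parp12 window (chr6:39118300-39118599, - strand) and the Dtx3l window (chr16:35938978-35939277, - strand) held neither string, and all their letters are in lower case. The Dtx3l window is shown for comparison.
Dtx3l window: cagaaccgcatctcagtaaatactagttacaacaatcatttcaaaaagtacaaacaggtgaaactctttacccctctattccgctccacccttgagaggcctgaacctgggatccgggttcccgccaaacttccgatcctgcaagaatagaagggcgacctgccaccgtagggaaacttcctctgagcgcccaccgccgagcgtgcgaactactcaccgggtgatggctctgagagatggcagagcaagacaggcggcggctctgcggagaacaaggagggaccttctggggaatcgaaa
The response element core was present in 12 of 25 antiviral effector genes with a window and in 9 of 9 interferon-gamma GTPases and targets. It was present in 3 of 18 interferon signalling genes and in 1 of 10 other PARP family genes (Parp4). These counts are per gene over all its windows, whereas the shares above are per window. Stretches around it are shown for Stat2 and Irgm1, whose levels ran closest to Parp9 below, and for Isg15, a ubiquitin-like antiviral protein. Capitals mark 1 match of the core per stretch. Further matches overlap the marked one in Irgm1 (GAAATAGAAA) and in Isg15 (GAAAAGGAAA and GAAACAGAAA), and the rest of their letters stand in lower case.
Stat2: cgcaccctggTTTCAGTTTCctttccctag
Irgm1: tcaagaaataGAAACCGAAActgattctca
Isg15: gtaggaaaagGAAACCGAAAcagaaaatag
A match describes these letters only, and binding was not measured.

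Levels are log2 of the background-subtracted signal minus the array's 75th percentile, so that 0 is the brightness at that percentile and 1 unit is a doubling. Between 36.4% and 57.5% of probes per array were well above background, and 13005 genes were tested with limma, a gene entering where 4 or more arrays of some group had its probe above background. Parp1, the targeted gene, was well above background on 5 of 5 wild-type sham arrays (-0.94 to -0.35) and on 0 of 5 knockout sham arrays (-3.81 to -2.29). It went against the label on 2 arrays. Parp1 was above background, at -1.67, on the array labelled knockout 6 Gy replicate 1. It was not, at -3.94, on that labelled wild-type 8.8 Gy replicate 4. The array labelled knockout 6 Gy replicate 1 was also nearly the same as that labelled wild-type 8.8 Gy replicate 2 (SD of the log2 difference over probes 0.167, where the typical pair of arrays had 0.901). The next closest pair was knockout sham replicates 4 and 5 (0.262), which were left out singly but not together. The members' differences between groups are given with all arrays, without the nearly identical pair, and without the 2 arrays whose Parp1 goes against the label. So are several of the list counts and correlations. Blood cell markers were present as labelled: neutrophil, platelet and erythroid markers were detected on every array. B cell marker levels fell with radiation (5 of 7 tested genes in each of the 3 responses), as did T cell markers (6, 7 and 7 of 8). Radiation raised all 10 tested p53 targets in each of the 3 responses, among them Cdkn1a, a cell cycle inhibitor, by 4.17 and 3.89 log2 units in wild type and at least 11.9-fold in knockout mice. An at-least fold is given where a group had the probe well above background on no array. The bright mean is then set against the mean, per dim array, of its detection limit or the probe's own reading, whichever is higher. Such a fold holds for the 75th percentile scaling only. Over the scalings and background correction tried, the Cdkn1a difference in knockout mice went down to 1.91 log2 units.

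Parp9 and Dtx3l form a complex as proteins, and of the 4 tested members Parp9 had the largest difference between irradiated and sham knockout mice. The Parp9 level was 0.64, 0.16, 0.10, -0.15 and -0.19 in wild-type sham mice, 1.46, 0.08, 0.03, 1.07 and 1.25 at 6 Gy and 0.77, 0.50, 0.91 and 0.52 at 8.8 Gy. In knockout mice it was -0.36, -0.09, -2.07, -0.31 and -0.39 after sham exposure and 0.56, 0.81, 0.18, 0.78 and 0.34 after 6 Gy. All 5 irradiated knockout arrays lay above all 5 knockout sham arrays, whereas the wild-type groups overlapped. The lowest value, on knockout sham replicate 3, was the sole Parp9 value not well above background. The rise in knockout mice was 1.18 ± 0.328 log2 units (SE, 2.26-fold, limma adjusted p = 0.0122), and it was 0.82 (adjusted p = 0.0319) without that array. It stayed called with each of the 24 arrays left out in turn (0.82 to 1.31), and normexp background correction gave 0.54 (adjusted p = 0.0486). The rank of Parp9 depended on the processing. With normexp it lay below Parp14 (0.90) and Parp10 (1.17), and on the authors' deposited log2 values it had 1.06 against 1.21 and 1.11. With slide as a fixed block it had 0.56 against 0.92 for each. In bulk blood, fewer cells of a type and less RNA per cell cannot be told apart, for this and every other difference.

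Dtx3l, the ubiquitin ligase, had levels of 0.96, 1.26, 1.03, 1.12 and 0.76 in wild-type sham mice, 1.79, 0.79, 0.73, 1.38 and 1.41 at 6 Gy and 1.91, 1.55, 1.28 and 1.32 at 8.8 Gy. In knockout mice it was 0.11, 0.64, 0.70, 1.33 and 1.14 after sham exposure and 1.43, 1.71, 0.70, 1.57 and 0.62 after 6 Gy. The 4 arrays at 8.8 Gy lay above all wild-type sham arrays, and the other irradiated groups overlapped with their shams. No Dtx3l difference passed the test: it was 0.49 at 8.8 Gy (limma adjusted p = 0.248) and 0.42 in knockout mice (adjusted p = 0.258, 95% interval -0.13 to 0.97). On the authors' deposited log2 values, limma gave 0.69 for Dtx3l in knockout mice with an adjusted p of 0.0336, and normexp gave -0.04 at 8.8 Gy.

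Parp14, the Stat6 partner, was measured at 0.96, 1.70, 1.39, 1.47 and 0.58 in wild-type sham mice, 2.50, 1.05, 1.40, 2.28 and 1.74 at 6 Gy and 2.57, 2.07, 1.79 and 2.05 at 8.8 Gy. In knockout mice it was 0.49, 1.31, 0.43, 1.55 and 1.53 after sham exposure and 1.88, 2.50, 1.49, 2.33 and 1.82 after 6 Gy. The 8.8 Gy arrays all lay above wild-type sham, and in knockout mice the lowest irradiated array overlapped with the highest shams. Parp14 rose by 0.94 ± 0.307 log2 units in knockout mice (1.92-fold, limma adjusted p = 0.0294). At 8.8 Gy the difference was 0.90 ± 0.326 with an adjusted p of 0.062, and at 6 Gy in wild type 0.57 ± 0.307 with an adjusted p of 0.168. The knockout call was lost without knockout sham replicate 1 or 3 or irradiated knockout replicate 2 or 4 (0.79 to 0.86, limma adjusted p = 0.068 to 0.0835). The 8.8 Gy difference passed without knockout sham replicate 3 (adjusted p = 0.0479), which enters only through the shared estimate of the spread.

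Parp10, the Myc partner, stood at 2.75, 3.06, 2.83, 2.79 and 2.43 in wild-type sham mice, 2.66, 2.91, 3.09, 4.13 and 3.58 at 6 Gy and 3.50, 3.20, 3.51 and 2.49 at 8.8 Gy. In knockout mice it was 1.91, 2.75, 2.37, 3.01 and 3.10 after sham exposure and 3.09, 4.19, 3.07, 3.78 and 3.25 after 6 Gy. Every irradiated group overlapped with its shams, and the lowest value at 8.8 Gy was on replicate 4, the array whose Parp1 goes against its label. Parp10 rose by 0.85 ± 0.298 log2 units in knockout mice (1.80-fold, limma adjusted p = 0.0429). The wild-type differences were 0.50 at 6 Gy (adjusted p = 0.214) and 0.41 at 8.8 Gy (adjusted p = 0.401, and -0.73 with normexp background correction). The knockout call was lost in 7 of 24 fits with an array left out (0.67 to 0.88, limma adjusted p = 0.0506 to 0.132): without knockout sham replicate 1, 2 or 3, irradiated knockout replicate 2 or 4, wild-type sham replicate 3 or wild-type 8.8 Gy replicate 2.

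Parp12, the zinc finger member, was dim and was not tested with the rest, because no group had it well above background on 4 or more arrays. In all, Parp12 was well above background on 9 of 24 arrays: 8 of 14 irradiated and 1 of 10 sham. It was above background on wild-type sham replicate 1 (-2.80), on 3 arrays at 6 Gy (-0.48, -1.41 and -1.45), on 2 at 8.8 Gy (-1.04 and -1.48) and on 3 of irradiated knockout mice (-1.67, -1.10 and -1.24). The 15 remaining arrays read between -4.92 and -2.67 and have only an upper bound. In knockout sham mice, where Parp12 was on no array well above background, the irradiated mean minus the bound was -0.09 log2 units, so no fold is given. With no filter on dim probes limma gave 1.90 ± 0.677 for wild-type 6 Gy (adjusted p = 0.0395), 2.19 for 8.8 Gy (adjusted p = 0.0761) and 1.93 for knockout mice (adjusted p = 0.0729), over 24124 genes whose median at wild-type 6 Gy was 0.63. With normexp background correction the knockout difference was -0.04.

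Parp11, the member whose promoter window holds both interferon strings, was well above background on 0 of 24 arrays. Its readings ran from -4.88 to -2.35. Without the filter its wild-type 6 Gy difference was 1.17 ± 0.391 (limma adjusted p = 0.0299), while the mean of all probes detected on no array also stood higher in that group (-4.30 to -3.54 per array, against -5.89 to -4.34 in wild-type sham). Parp11 thus has only an upper bound on every array.

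**Figure D1:**
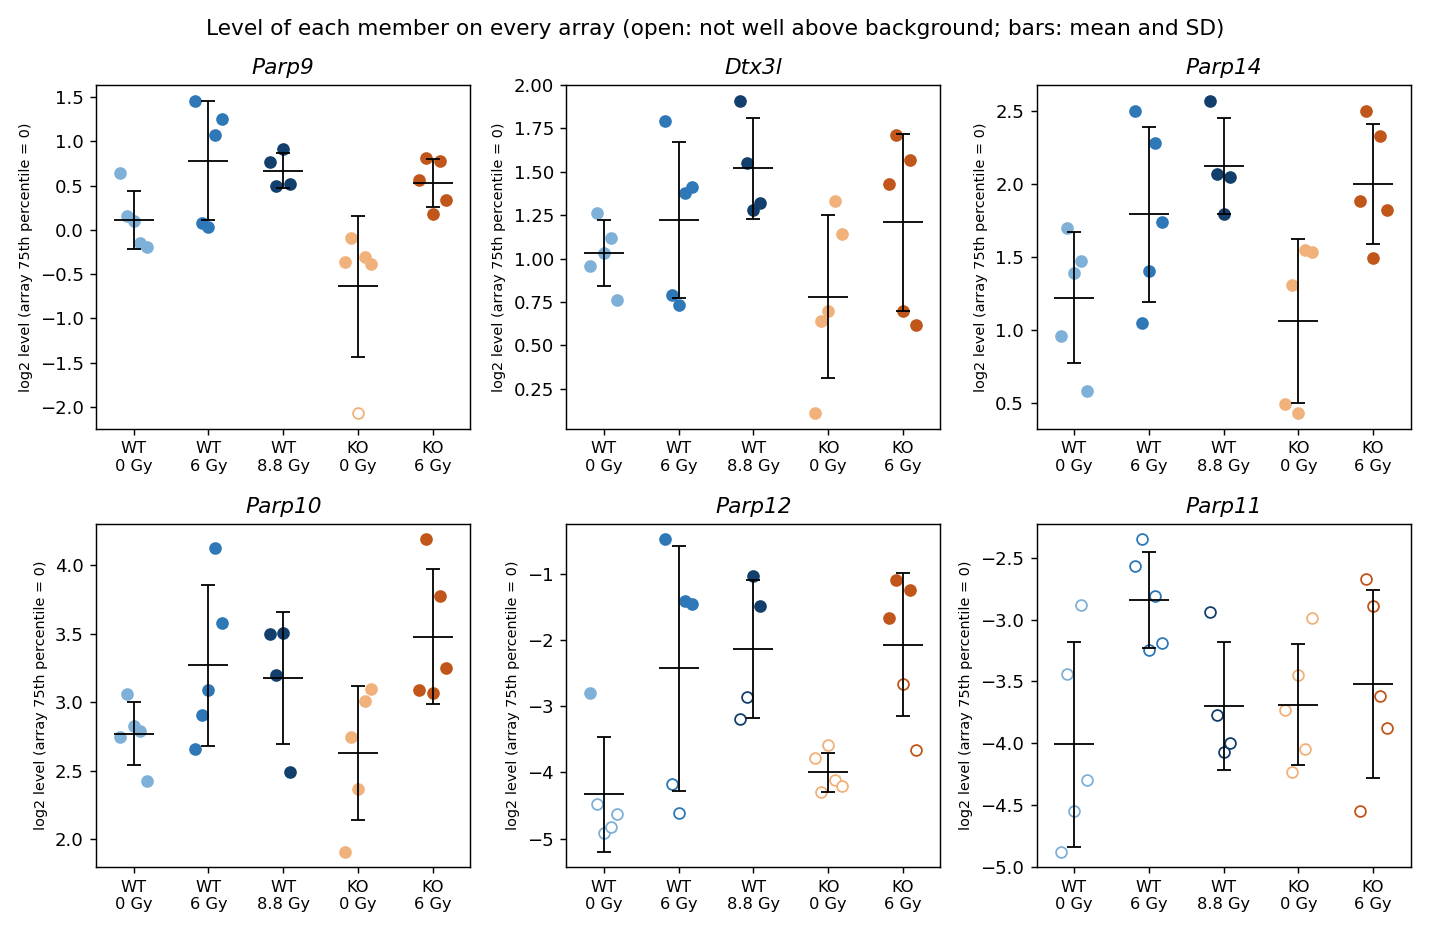
Level of each of the 6 members on every array (log2 relative to the array's 75th percentile), by group. Filled points are well above background and open points are not, and bars give the mean ± SD. Parp9 in irradiated knockout mice lies wholly above knockout sham, Parp12 is filled on 8 of 14 irradiated arrays and 1 of 10 sham arrays, and Parp11 is filled on none of the 24.

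Of the 4 tested members, 3 rose in irradiated knockout mice (Parp9, Parp14 and Parp10), where 12.2% of all tested genes were called higher and 10.6% lower. None of the 4 passed in either wild-type response by limma, where 15.8% of genes were called higher and 10.7% lower at 6 Gy, and 7.27% higher and 8.88% lower at 8.8 Gy. At an unadjusted p under 0.05 the counts were 0 at 6 Gy, where 39.6% of all genes were under it, and 1 (Parp14) at 8.8 Gy, where 30.5% were. The median difference of the 4 was 0.90 in knockout mice, 0.54 at wild-type 6 Gy and 0.52 at 8.8 Gy, beside -0.08, 0.04 and 0.04 for all tested genes. Irradiated and sham arrays did not overlap for 1 member in knockout mice (Parp9, 9.30% of all genes, higher), for 0 at wild-type 6 Gy (9.03%) and for 2 at 8.8 Gy (Parp14 and Dtx3l, 6.88%). Both wild-type responses share the same sham arrays. When arrays are centred on their median, all 4 members have the opposite sign at wild-type 6 Gy (Parp9 -0.12, Parp14 -0.21, Parp10 -0.28, Dtx3l -0.59), where the median of all genes is then -0.74. In knockout mice that centring left Parp9 called (1.22, limma adjusted p = 0.0437) but not Parp14 (0.99, adjusted p = 0.0517) or Parp10 (0.89, adjusted p = 0.0759). Centring takes the same amount from every gene of an array. That the members stay above the all-gene median at wild-type 6 Gy is therefore fixed in advance and no further result.

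The difference between the genotypes' 6 Gy responses was tested directly and passed for 0 of the 4 members by limma, where 6.51% of all genes were called. For Parp9 it was 0.51 ± 0.464 log2 units (adjusted p = 0.513, 95% interval -0.45 to 1.47), for Parp14 0.37, for Parp10 0.35 and for Dtx3l 0.24. Without knockout sham replicate 3 the Parp9 value was 0.15 (limma adjusted p = 0.845). A call in knockout mice beside no call in wild type is therefore not a shown difference, and the intervals do not show that the responses are alike. In sham mice Parp9 was 0.76 log2 units lower without Parp1 (difference -0.76, limma adjusted p = 0.205, 95% interval -1.44 to -0.08), and the other members differed by -0.24 to -0.14. Without knockout sham replicate 3 the Parp9 difference was -0.40 (limma adjusted p = 0.655). That comparison called 0 members and 0.723% of genes, and its groups shared no scan day and no slide. Irradiated knockout mice had 0 members called against wild type at the equal dose of 6 Gy (1.06% of genes, 3033 of 13005 at an unadjusted p under 0.05, differences -0.25 to 0.21), and 0 called against wild type at the equally lethal 8.8 Gy (0% of genes, 266 of 13005 at an unadjusted p under 0.05, differences -0.31 to 0.30). Between 8.8 and 6 Gy in wild type, again 0 members and 0% of genes were called by limma (2354 genes at an unadjusted p under 0.05), with differences of -0.11 to 0.33. In these 3 comparisons 0 members had an unadjusted p under 0.05.

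**Figure D2:**
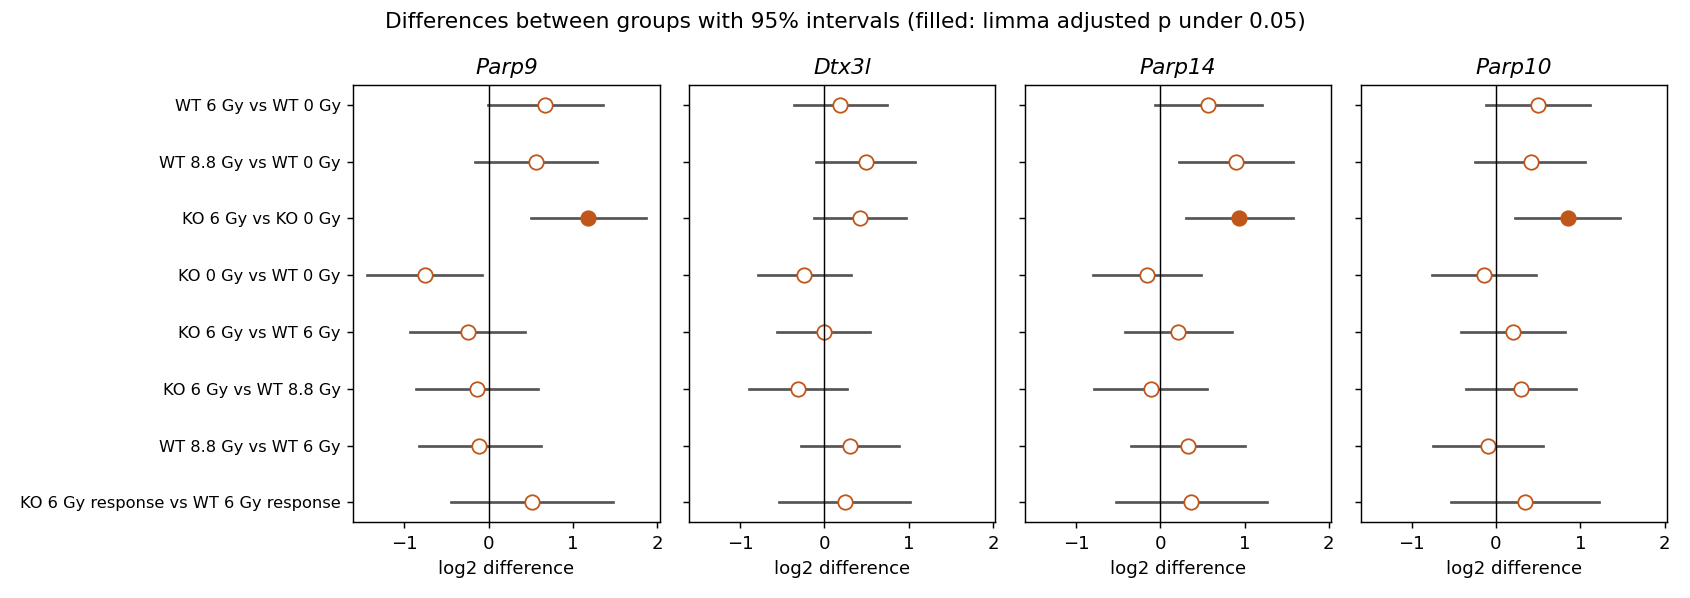
Log2 difference of the 4 tested members in 8 comparisons, with 95% intervals. WT is wild type and KO is Parp1-/-, and filled points have a limma adjusted p under 0.05. The filled points are Parp9 (1.18), Parp14 (0.94) and Parp10 (0.85) in irradiated against sham knockout mice.

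The slide and scan day of each array moved with the groups. All wild-type sham arrays were scanned on 1 day and all irradiated wild-type arrays on another, so in wild type radiation and scan day cannot be told apart. The sham groups of the genotypes shared no scan day and no slide (wild type on day 4, knockout on days 1 and 2). The genotype difference in sham mice thus cannot be told apart from scan day, and the difference between the responses contains it. Knockout groups shared scan day 1, with 1 irradiated and 2 sham arrays on the same slide. Within it the differences were 0.56 for Parp9, 0.92 for Parp14, 0.92 for Parp10 and 0.25 for Dtx3l, against 1.18, 0.94, 0.85 and 0.42 over all arrays. With slide as a fixed block those same values had limma adjusted p of 0.71 for Parp9, 0.452 for Parp14 and 0.397 for Parp10, so 0 members and 50 of 13005 genes were called. With slide as a random block 3 members stayed called. Without the nearly identical pair, Parp9 rose by 1.17 (limma adjusted p = 0.0302) and Parp10 by 0.95 (adjusted p = 0.0485), while Parp14 at 0.98 had an adjusted p of 0.0513. Without the arrays whose Parp1 goes against the label, all 3 stayed called (adjusted p = 0.0278 to 0.0477). At 8.8 Gy in wild type 0 members were called by limma without either pair of arrays, with a Parp14 difference of 0.92 each time. In the other comparisons too 0 members were called by limma without either pair. The members' differences were then -0.25 to 0.30 between the genotypes at 6 Gy, -0.43 to 0.40 between irradiated knockout mice and wild type at 8.8 Gy, and 0.18 to 0.50 between the responses. Over all genes, the calls between the genotypes at 6 Gy went from 138 to 484 without the nearly identical pair and to 617 without the arrays whose Parp1 goes against the label. At 8.8 Gy they went from 2101 to 1153 and 1433.

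**Figure D3:**
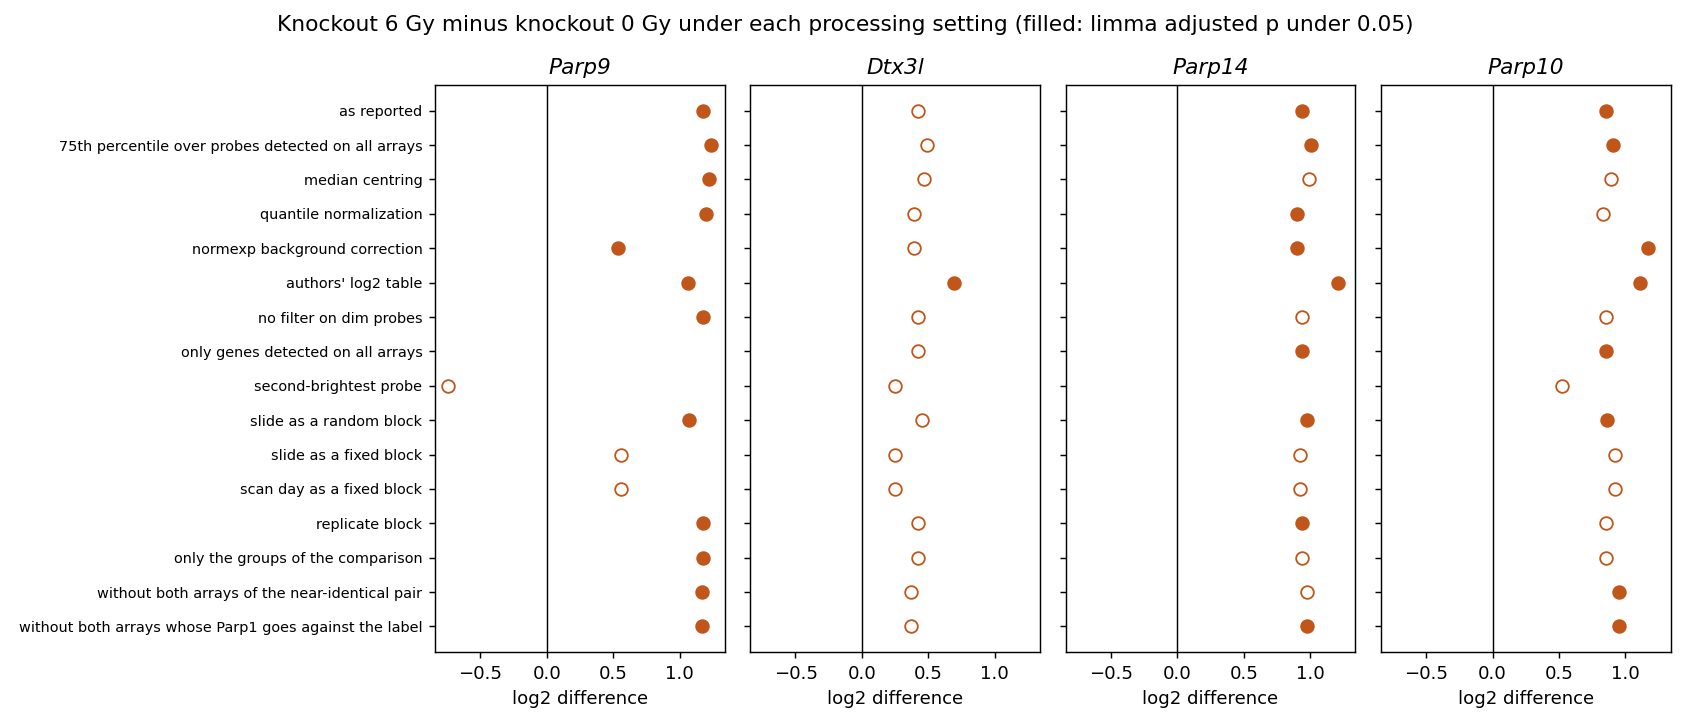
Log2 difference between irradiated and sham knockout mice for Parp9, Dtx3l, Parp14 and Parp10 under each processing setting, with filled points at a limma adjusted p under 0.05. Parp9 lies at 1.18 in the main setting and 0.56 with slide as a fixed block, and turns to -0.74 with its second-brightest probe, which was well above background on 1 array.

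The rest of the interferon pathway was read through gene lists. Of 30 tested antiviral effectors, genes whose products block virus replication, 22 rose and 1 fell at wild-type 6 Gy, 19 rose and 0 fell at 8.8 Gy, and 19 rose and 1 fell in knockout mice, with medians of 1.98, 1.52 and 1.62. Oasl2, an oligoadenylate synthetase-like protein, rose by 5.06 and 5.25 log2 units in wild type and at least 5.88-fold in knockout mice. Oas2, a synthetase that arms RNase L, rose by 4.52, 4.49 and 4.64. Mx1, a dynamin-like GTPase that blocks influenza virus, rose at least 9.93-fold, 4.85-fold and 2.13-fold, being on no sham array well above background. Ifit3b rose by 5.00 at 8.8 Gy and Oasl1 by 3.99 in knockout mice. These sizes depended on scaling and background correction. The lowest values over those tried were 2.04 and 1.61 for Oasl2 in wild type and 1.73 for Ifit3b at 8.8 Gy. For Oas2 they were 2.72, 1.89 and 2.45. For Mx1 they were 1.48, 1.19 and 0.37 log2 units, and for Oasl2 in knockout mice 1.31. Those of Mx1 and of Oasl2 in knockout mice are smaller than the at-least folds above. The wild-type sham means of Oasl2 (-4.19) and Ifit3b (-3.38) lay within the range of those arrays' detection limits (-4.32 to -2.51). Rsad2, named after its values were seen, was the exception: it fell by 2.78 at wild-type 6 Gy (limma adjusted p = 0.0193) and fell by 2.45 in knockout mice (adjusted p = 0.0375). Its direction was the same under every scaling tried. Without the nearly identical pair, 18 antiviral effectors rose and 1 fell at 8.8 Gy and 19 rose and 1 fell in knockout mice, and without the arrays whose Parp1 goes against the label 17 rose and 0 fell, and 19 rose and 1 fell.

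Upstream of the effectors, the signalling genes moved less evenly. Of 21 tested, 4 rose and 4 fell at wild-type 6 Gy, 4 rose and 2 fell at 8.8 Gy and 6 rose and 1 fell in knockout mice, with medians of 0.05, 0.08 and 0.07. Irf7, the factor that amplifies interferon production, rose by 2.34, 2.68 and 2.40 log2 units. Irf9, the DNA-binding part of the type I complex, rose by 0.68, 1.11 and 1.35, although its value at wild-type 6 Gy turned to -0.10 with median centring. The RNA sensor Ifih1 rose by 1.34, 1.38 and 1.69, and its relative Dhx58 by 1.72 and 1.32 in wild type and at least 2.33-fold in knockout mice. The lowest Dhx58 difference in knockout mice over the scalings and background correction tried was 0.21 log2 units. Stat2 rose by 0.96 in knockout mice (limma adjusted p = 0.0311), beside 0.48 (adjusted p = 0.269) and 0.58 (adjusted p = 0.246) in wild type. Irf1, a factor induced by interferon gamma, had differences of -0.07, 0.18 and 0.30 and did not pass. Sting1, the adaptor of DNA sensing, fell by 1.01, 1.60 and 1.05. None of the 3 tested interferon ligands passed in any of the 3 responses by limma.

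Of 10 tested interferon-gamma GTPases and targets, 3 rose at wild-type 6 Gy, 4 at 8.8 Gy and 5 in knockout mice, with medians of 0.82, 0.92 and 0.92. Gbp2, a guanylate-binding protein, rose by 1.57, 1.28 and 1.39, and Irgm2, an immunity-related GTPase, by 1.24, 1.42 and 1.5. Irgm1 rose by 0.90 at wild-type 6 Gy, Igtp by 1.22 at 8.8 Gy and Gbp3 by 1.66 in knockout mice, where Ciita, the master regulator of MHC class II, fell by 1.15. These sizes too depended on scaling and background correction. In wild type the lowest values over those tried were 0.78 and 0.09 for Gbp2 and 0.45 and 0.43 for Irgm2. They were 0.12 for Irgm1 at 6 Gy and 0.24 for Igtp at 8.8 Gy. In knockout mice the lowest were 1.13 for Gbp2, 1.15 for Irgm2 and 0.99 for Gbp3. Without either pair of doubted arrays 3 rose at 8.8 Gy and 5 in knockout mice.

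Of the PARP genes outside the interferon-linked members, 9 were tested. By limma 0 rose and 1 fell in each response: Parp4, the vault particle PARP, at wild-type 6 Gy (-1.04), and Parp3, a DNA-break PARP, at 8.8 Gy (-1.42, but 0.41 with normexp background correction) and in knockout mice (-1.44). With median centring 8 of the 9 were called lower at wild-type 6 Gy, but so were 5513 of the 13005 genes, whose median was then -0.74. The Parp3 response itself differed between the genotypes at 6 Gy (-1.47, limma adjusted p = 0.0371), and its level after 6 Gy was 1.19 lower in knockout than in wild-type mice (difference -1.19, adjusted p = 0.0465). Parp3 was not well above background on 3 of 5 irradiated knockout arrays, and both calls were lost with median centring (-0.64 and -0.55), quantile normalization (-0.95 and -0.77), normexp (-0.84 and -0.47) and slide as a fixed block (-2.37 and -1.13, limma adjusted p = 1 and 0.126). Without either pair of doubted arrays both stayed called (-1.44 and -1.16). Zc3hav1, the zinc finger antiviral protein, had differences of -0.67, -0.99 and -0.61, Tiparp of -0.25, 0.23 and 0.63, and Parp8 of 0.01, 0.02 and 0.41, none of which passed. Among 5 tested removers of ADP-ribose, Adprh rose by 0.81 in knockout mice and Macrod2 at least 1.02-fold (-0.21 log2 units with normexp), and 0 passed in wild type. Of the deltex relatives of Dtx3l, Dtx1 fell at 8.8 Gy (-2) and in knockout mice (-1.13), where 0 deltex relatives were called lower without either pair of doubted arrays.

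**Figure D4:**
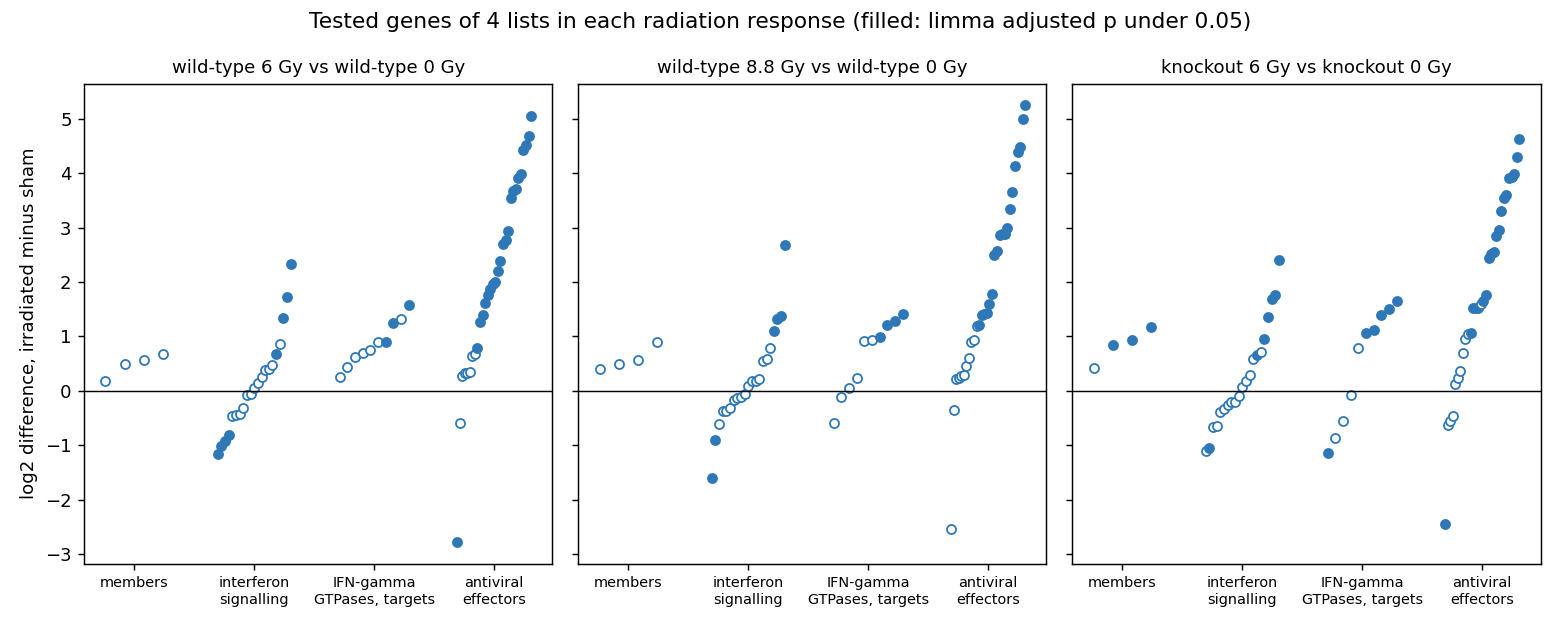
Log2 difference of each tested gene of 4 lists (members, interferon signalling, interferon-gamma GTPases and targets, antiviral effectors) in the 3 radiation responses. The antiviral effectors have medians of 1.98, 1.52 and 1.62, against 0.54, 0.52 and 0.90 for the members.

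Across the 24 arrays the members ran with particular interferon genes, which is given as a description since all points share array brightness and the radiation groups. Among 10046 genes, the highest Pearson correlations with Parp9 were those of Stat2 (r = 0.96, Spearman rho 0.94), Irgm1 (0.94) and Rnf213 (0.94), a large ubiquitin ligase. The correlation of Parp9 with Stat2 was 0.95 after the group means were removed, and 0.94 over 22 arrays without the 2 farthest. It was 0.97 without either pair of doubted arrays. Parp14 ran closest to Irf9 (0.92, and 0.90 within groups), Gbp7 (0.88) and Samd9l (0.87). Dtx3l ran closest to Tapbp, the tapasin of peptide loading (0.85), Znfx1 (0.83) and Adar, an interferon-induced RNA editor (0.81). Parp10 stood apart, with Laptm5 (0.84), Pisd-ps3 (0.84) and Akr1b10 (0.83).

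Among the members, the neighbours Parp14 and Dtx3l had the highest correlation (r = 0.85 over 24 arrays, 0.83 within groups, 0.79 without the 2 farthest arrays, and 0.84 and 0.85 without the doubted pairs). Parp9, which lies beside Dtx3l, had r = 0.62 with it (0.46 within groups) and 0.75 with Parp14 (0.62 within groups). Parp10, on another chromosome, had 0.72 with Parp14, 0.61 with Dtx3l and 0.57 with Parp9. Part of this spread is visible among mice of 1 group: at wild-type 6 Gy, replicates 1, 4 and 5 were high and replicates 2 and 3 low for Parp9 and Dtx3l, and Parp12 was above background on the former 3 alone. Stat2 on the same arrays read 2.15, 0.46, 0.48, 1.65 and 1.73, and Irf9 read 3.40, 2.13, 2.12, 3.05 and 2.63. The same replicates were high for both. The B cell marker sums on these arrays were 3.73, 2.25, 2.45, 3.49 and 3.59, and the Kupffer cell sums 5.47, 0.96, 3.64, 5.31 and 5.69. These too were higher on replicates 1, 4 and 5. The T cell, NK cell, platelet and erythroid sums went the other way, each lower on replicates 1, 4 and 5 than on 2 and 3. The platelet sums were 10.01, 10.4, 10.43, 9.16 and 8.69. Parp10 did not follow the split and was lowest on replicate 1 (2.66). The part of these cell types in the split was not tested.

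**Figure D5:**
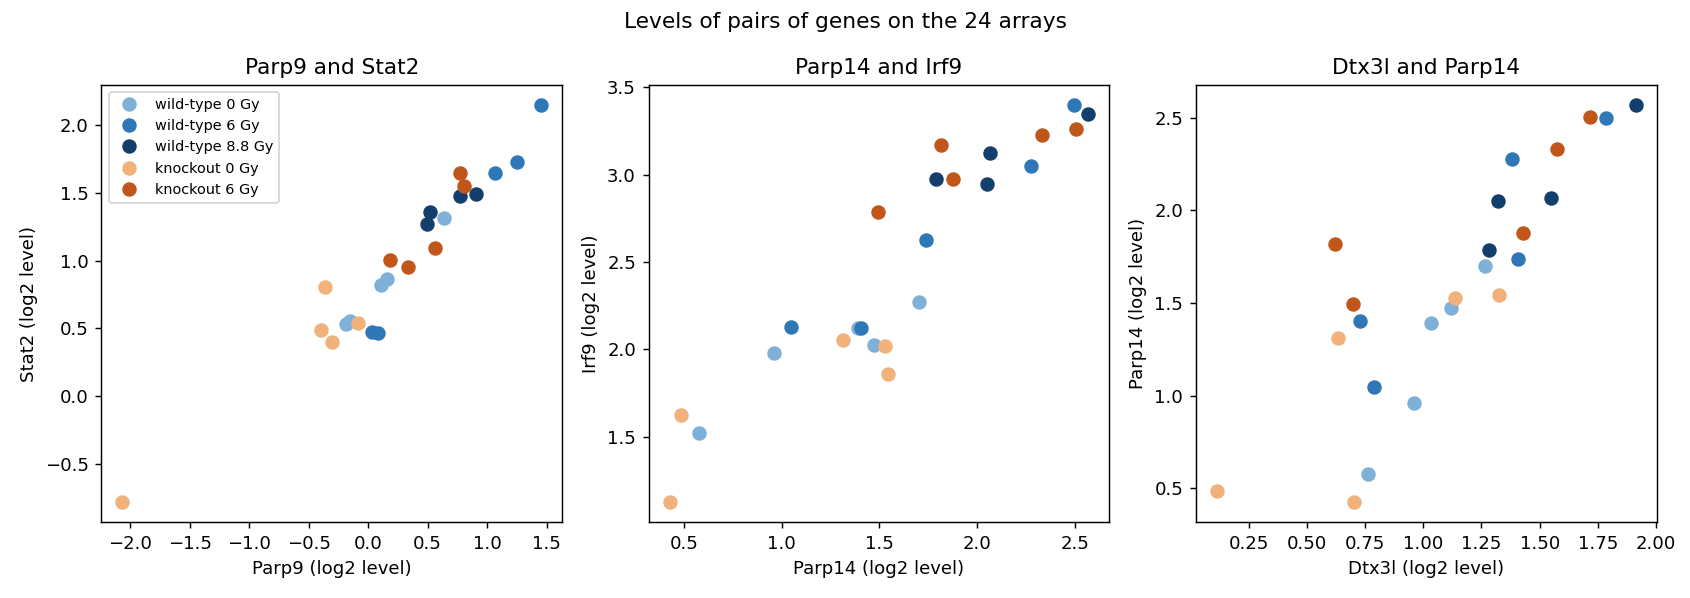
Levels of Parp9 against Stat2, Parp14 against Irf9 and Dtx3l against Parp14 on 24 arrays, coloured by group (log2 relative to the array's 75th percentile on both axes). The points follow a line with r = 0.96, 0.92 and 0.85, and knockout sham replicate 3 is the lowest Parp9 point at -2.07.

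Cell type markers moved beside these results, and their part in them was not tested. The summed level of 8 B cell markers had medians of 4.97 in wild-type sham, 3.49 at 6 Gy, 2.44 at 8.8 Gy, 4.71 in knockout sham and 2.31 in irradiated knockout mice. That of 8 T cell markers was 7.47, 6.13, 5.97, 7.37 and 5.63 in the same order, with no overlap between irradiated and sham arrays of a genotype. Neutrophil markers ran from 8.58 to 9.78 in wild-type sham and from 9.34 to 10.66 in knockout sham, and from 9.68 to 11.07 over the irradiated groups. Monocyte markers ran from 5.08 to 7.01 over all arrays. Markers of Kupffer cells, the macrophages of the liver, ran from -0.17 to 4.20 in sham and from 0.96 to 6.55 in irradiated mice, with 1 to 6 of 6 markers detected per array. Of 5 tested Kupffer markers, 2 rose at wild-type 6 Gy (0 with quantile normalization), 0 at 8.8 Gy and 3 in knockout mice (1 without either pair of doubted arrays). Of 6 tested erythroid markers, 4 fell at wild-type 6 Gy, 3 at 8.8 Gy and 4 in knockout mice (medians -2.67, -1.66 and -2.69). Of 6 tested platelet markers, 0, 3 and 2 rose in the same order, and of 6 tested plasmacytoid dendritic cell markers 2, 1 and 3 fell. Hepatocyte markers ran from 0.73 to 10.68 within wild-type sham alone, with 2 to 7 of 7 detected. Within groups, the correlation with the B cell sum was 0.68 for Parp9, 0.64 for Parp14, 0.63 for Dtx3l and 0.40 for Parp10. That with the erythroid sum was -0.66 for Parp9 and lay between -0.06 and 0.13 for the other tested members. With the hepatocyte sum it was 0.09 for Parp9, -0.53 for Parp14, -0.38 for Dtx3l and -0.33 for Parp10. With the remaining marker sums the tested members' correlations lay between -0.46 (Parp9, platelet) and 0.46 (Dtx3l, plasmacytoid dendritic cell).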

How the data were processed

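RNA of whole blood from 24 mice was measured on 24 arrays, grouped by the genotype and dose in the labels. Linear spot intensities, 1 deposited file per array, were made with Agilent Feature Extraction 11.5.1 per the file headers and the submitters' processing notes, with background subtracted and no scaling between arrays. The authors' series table holds log2 values for 10214 probes, equal to log2 signal plus 1 constant per array (SD over probes at most 0.0717), with 8350 empty cells over 10189 matched probes, and served as an alternative. Parp11 and Parp12 are empty there on all 24 arrays and Parp9 on knockout sham replicate 3, and a fit on that table leaves out such cells.

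Control spots were left out, log2 processed signals had the array's 75th percentile subtracted, and spots of a probe were averaged (39429 probes). Of these, 27508 were named through RefSeq accessions (GRCm38.p6), 5747 by the array file, and 6174 have no symbol. The brightest probe by mean level stood for a gene. Genes were kept where 4 or more arrays of some group exceeded background clearly.

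limma 3.58.1 in R 4.3.3 (lmFit, eBayes, two-sided) was fitted over all 24 arrays and 5 group means without a block, with Benjamini-Hochberg adjustment over 13005 genes and calls under 0.05. The script was tested on simulated data. Named are all members, Parp1, chosen signalling and PARP genes, at most 3 called genes of largest size per list and comparison, and the 3 genes most correlated with each member among genes detected on 20 or more arrays. The result of 1 gene of this rule is not reported here. The members and lists were chosen with earlier results of these data known. The labels do not say that a replicate number pairs mice. Mean correlations of same-numbered deviations were -0.129, 0.145, -0.105 and -0.0216, which cannot exclude a pairing. The number of arrays limits the precision. Alternatives were scaling, background correction, filter, probe, blocks and leaving out arrays. Slide and scan day came from the file headers (10 slides, 4 scan days).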

Additional observations from a re-analysis of the deposited data

Results flagged for a closer look

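Of 30 member and group combinations checked for a sample far from the others, 2 were marked, and chance marks about 1 in 20. Parp9 on knockout sham replicate 3 read -2.07, while the other 4 arrays of that group read -0.39 to -0.09. That array also had the lowest 75th percentile signal of the 24 (47.2) and the lowest share of probes well above background (36.4%), and its Stat2 level was -0.78. Whether its brightness bears on the Parp9 reading was not tested. Parp12 on wild-type sham replicate 1 read -2.80 and was well above background, while the other 4 arrays of that group read -4.92 to -4.48 and were not.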

How the results depend on the processing

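The count of members called in knockout mice (3) was 1 with median centring, 1 with no filter on dim probes, 1 with only the groups compared, and 0 with the second-brightest probe, with slide or with scan day as a fixed block. With 1 array left out it ranged from 1 to 3, being 1 without knockout sham replicate 1 or 3 or irradiated knockout replicate 2 or 4. It was 4 on the authors' table, 3 with normexp and 2 with quantile normalization. Parp9 was called in 24 of 24 such refits (0.82 to 1.31), Parp14 in 20 and Parp10 in 17, and Parp9 turned to -0.74 (adjusted p = 0.459) with its second-brightest probe. The count at 8.8 Gy (0) was 1 on the authors' table and with genes detected on all arrays only, and ranged from 0 to 1 with an array left out. At wild-type 6 Gy (0) it was 2 of 3 with the second-brightest probe and ranged from 0 to 1 with an array left out. Over all genes that probe setting called 1099 higher and 309 lower there, with a median of 0.5. The second-brightest probes of Dtx3l and Parp10 were each well above background on 1 array of that group, and that of Parp9 on 0. For irradiated knockout against 8.8 Gy (0) the count was 1 with normexp. The 1 in both leave-one-out ranges came without knockout sham replicate 3. With the replicate block the knockout count was 2, Parp10 having an adjusted p of 0.0569. The cause of these changes was not tested. Among 1232 member differences refitted under alternatives, called ones included, 59 that were uncalled in the main fit changed sign.

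Counts over all genes moved too. At wild-type 6 Gy, 2049 were called higher and 1389 lower, against 540 and 5513 with median centring and 5750 and 1385 without the filter. In knockout mice 1591 and 1384 became 1550 and 766 on the authors' table. At 8.8 Gy 946 and 1155 became 501 and 1879 with median centring, 1168 and 785 on the authors' table, and 2466 and 2415 with normexp. Knockout against wild type at 6 Gy went from 55 and 83 to 3625 and 170 with median centring, and the difference between responses from 117 and 729 to 3433 and 440. Irradiated knockout against 8.8 Gy went from 0 to 2907 higher and 2843 lower with normexp. Wild-type 8.8 against 6 Gy went from 0 to 1654 and 47 with median centring and to 817 and 1343 with normexp. Signal near background limits Parp11 and Parp12.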

Other observations

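The dimmer probes carrying the members' names were near background: those of Dtx3l were well above it on 4 and 5 arrays, that of Parp10 on 5 and that of Parp9 on 1, of 24. The dimmer Parp10 probe (mm9 chr15:76063393-76063452) overlaps the bright one (chr15:76063433-76063492), which was well above background on all 24 arrays. On the nearly identical pair (labelled replicate 1 of knockout 6 Gy and replicate 2 of wild-type 8.8 Gy), the members with signal differed by -0.19 to 0.06 log2 units, while the dim Parp12 and Parp11 differed by 1.19 and -0.77.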
